A study of Homo sapiens with 6 samples.

Results

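Interleukin 1 and interleukin 6 are secreted cytokines that carry inflammatory signals between cells. The genes described are 10 of the 17687 named genes on the array, taken by symbol: the interleukin 1 family ligands IL1A, IL1B, IL18 and IL33, the receptor antagonist IL1RN, the interleukin 6 family ligands IL6, IL11 and LIF, and the receptor chains IL6ST and IL6R. Each was read by 1 probe set. They were measured on 6 Clarion S arrays in 3 non-small cell lung cancer lines, with 1 array per line and condition. PC-9 and HCC827 have mutant EGFR, the receptor of epidermal growth factor (EGF). They were left as control or given 0.01 uM erlotinib, an inhibitor of the EGFR kinase, for 6 hours. H322 carries the wild-type receptor and was left as control or given EGF for 6 hours at a dose that the labels write as 100 ug/ml. According to the labels the medium held TNFa, a cytokine that itself induces inflammatory genes, and they do not settle whether the controls had it. Nothing says that separate cultures were used, the 2 lines given erlotinib serve as each other's replicate, and the EGF comparison has no replicate.

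Interleukin 1 alpha and beta bind the receptor IL1R1 with its partner IL1RAP, and signal through MYD88 and IRAK kinases to NF-kappaB and MAP kinases. IL1RN occupies the same receptor without signalling, and IL1B and IL18 are made as precursors that inflammasome caspases cut. Interleukin 6, interleukin 11 and LIF all signal through the shared chain gp130, encoded by IL6ST, to JAK kinases and STAT3, and each pairs it with a chain of its own, which is IL6R for interleukin 6 and LIFR for LIF. In airway and lung cancer cells these cytokines are known targets of NF-kappaB and AP-1, a dimer of Fos and Jun proteins whose member FOSL1 lies downstream of EGFR.

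The gene starts are shown because AP-1, cyclic AMP response (CRE), STAT and kappaB motifs are the textbook entry points of these pathways. RefSeq promoter windows (GRCh38.p14, 250 bases before to 50 after a start) held 8 of the 10 genes, and LIF and IL18 were not among them. The 250 bases before the first listed start of IL1A (chr2:112784494-112784743, minus strand), IL1B (chr2:112836780-112837029, minus strand), IL6 (chr7:22726950-22727199, plus strand) and IL11 (chr19:55370464-55370713, minus strand) are printed 5′ to 3′ along the gene, with capitals for motif matches. IL1B and IL6 are printed as genes that fell with erlotinib, IL1A as the gene with the largest drop in HCC827, and IL11 as a ligand that did not pass the test.
IL1A: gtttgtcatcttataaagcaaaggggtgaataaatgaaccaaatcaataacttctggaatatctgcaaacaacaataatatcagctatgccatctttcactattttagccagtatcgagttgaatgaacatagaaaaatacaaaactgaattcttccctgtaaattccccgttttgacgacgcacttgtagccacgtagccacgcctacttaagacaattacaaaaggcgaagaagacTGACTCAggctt
IL1B: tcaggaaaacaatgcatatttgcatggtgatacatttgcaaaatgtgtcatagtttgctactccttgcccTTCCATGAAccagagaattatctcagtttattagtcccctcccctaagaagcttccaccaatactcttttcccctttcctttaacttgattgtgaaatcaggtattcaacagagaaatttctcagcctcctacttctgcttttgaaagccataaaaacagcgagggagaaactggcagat
IL6: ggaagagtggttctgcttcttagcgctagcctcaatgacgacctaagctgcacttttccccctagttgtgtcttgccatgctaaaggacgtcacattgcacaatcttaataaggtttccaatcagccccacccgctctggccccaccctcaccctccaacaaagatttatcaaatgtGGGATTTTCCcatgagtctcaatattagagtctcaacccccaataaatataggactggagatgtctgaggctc
IL11: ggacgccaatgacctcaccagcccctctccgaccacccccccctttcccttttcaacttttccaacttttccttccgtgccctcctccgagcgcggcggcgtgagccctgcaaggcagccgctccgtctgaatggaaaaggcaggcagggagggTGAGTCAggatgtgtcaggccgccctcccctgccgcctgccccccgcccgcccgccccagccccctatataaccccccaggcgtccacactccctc
The AP-1 motif TGANTCA was searched on both strands, as were the CRE motif TGACGTCA, the STAT motif TTCNNNGAA and the kappaB motif. IL1A held an AP-1 match, TGACTCA, at -12 to -6 from its first start, and a further match, TGAGTCA, at 39 to 45. These are the same sites that lie at -105 and -55 from its second start. IL11 held an AP-1 match at -96 to -90, IL1RN one at -223 to -217 from the first of its 3 starts, and IL6R one at 38 to 44. IL1B held a STAT match, TTCCATGAA, at -180 to -172, and IL33 one at 16 to 24 from the second of its 2 starts. IL6 held a kappaB match, GGGATTTTCC, at -73 to -64, and IL6ST one at -53 to -44. No CRE match lay in any of these windows, and none of the matches of different motifs overlapped. Among all 35116 windows, 7.71% held the AP-1 motif, 1.85% the CRE motif, 7.66% the STAT motif and 11.3% the kappaB motif. AP-1 matches lay at IL1A, IL1RN, IL11 and IL6R, and none in the windows of IL1B and IL6. LIF had no window, and whether a match bears on the change with erlotinib was not tested.

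**Figure D1:**
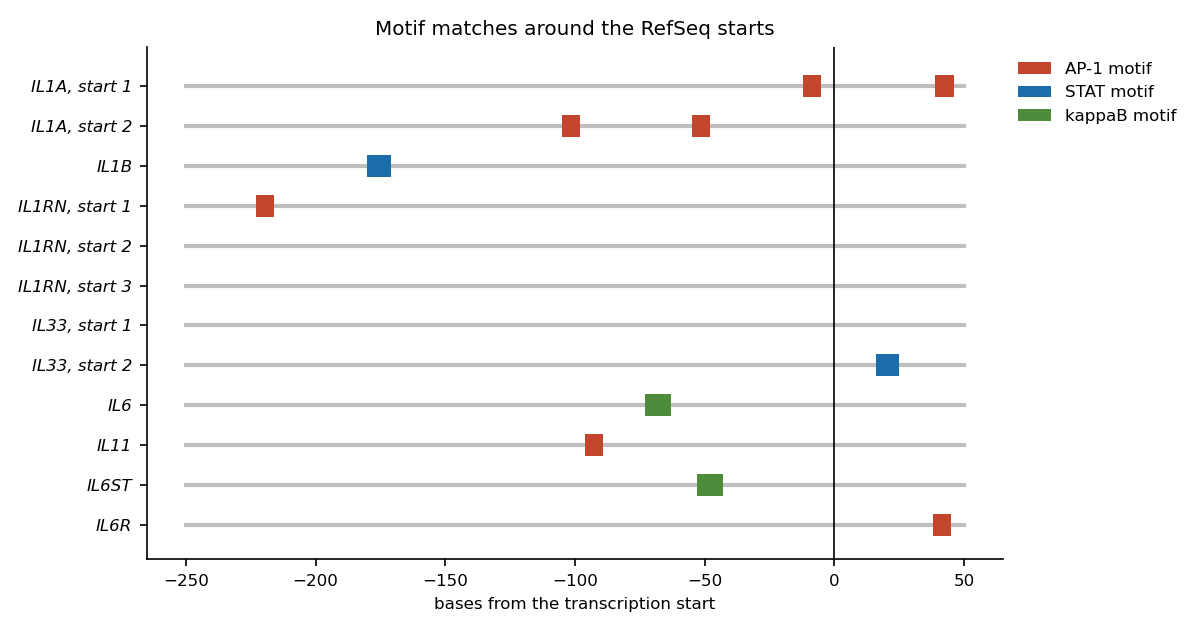
Each line is a RefSeq window from 250 bases before to 50 bases after a transcription start, with the distance from the start in bases on the horizontal axis and coloured boxes at motif matches, drawn to scale. AP-1 matches lie at IL1A, IL1RN, IL11 and IL6R, STAT matches at IL1B and IL33, and kappaB matches at IL6 and IL6ST.

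Levels are log2(intensity + 1) of the deposited values. Each array has 612 negative control probe sets, which match no transcript, and a gene was counted as above background where it exceeded their 95th percentile, 6.92 to 7.47 on the log2 scale. By that measure 48.8% to 52.4% of all genes, and 5 to 9 of the 10 cytokine and receptor genes, lay above it on an array. Genes known to lie downstream of EGFR were read as a check of treatment. FOSL1 was lower with erlotinib, 33.9-fold for PC-9 and 36.1-fold for HCC827, and 4.59-fold higher with EGF in H322, and DUSP6, a phosphatase induced by MAP kinase signalling, was at least 9.57-fold lower, 9.91-fold lower and 1.70-fold higher. SPRY4, an inhibitor of receptor tyrosine kinase signalling, was at least 1.02-fold lower, 2.31-fold lower and 1.24-fold higher, and EGR1 was below the controls in PC-9, 3.91-fold lower in HCC827 and 1.16-fold lower with EGF. EGFR itself lay at 12.68 and 12.71 for PC-9, 15.27 and 14.77 in HCC827, and 11.62 and 11.57 in H322. The 6 epithelial markers were above the controls on all 6 arrays, and of 7 measured leukocyte markers PTPRC, CD14, CD3E and MS4A1 were above them on none, CD68 on 5, CSF1R on 4 and ITGAM on 2 arrays. The lung markers NKX2-1 and NAPSA were above them in HCC827 alone, and SFTPB and SFTPC on no array. Probe sets differ in brightness, so levels are compared between arrays for 1 gene, not between genes. In whole cultures, fewer cells expressing a gene and less RNA per cell cannot be told apart.

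**Figure D2:**
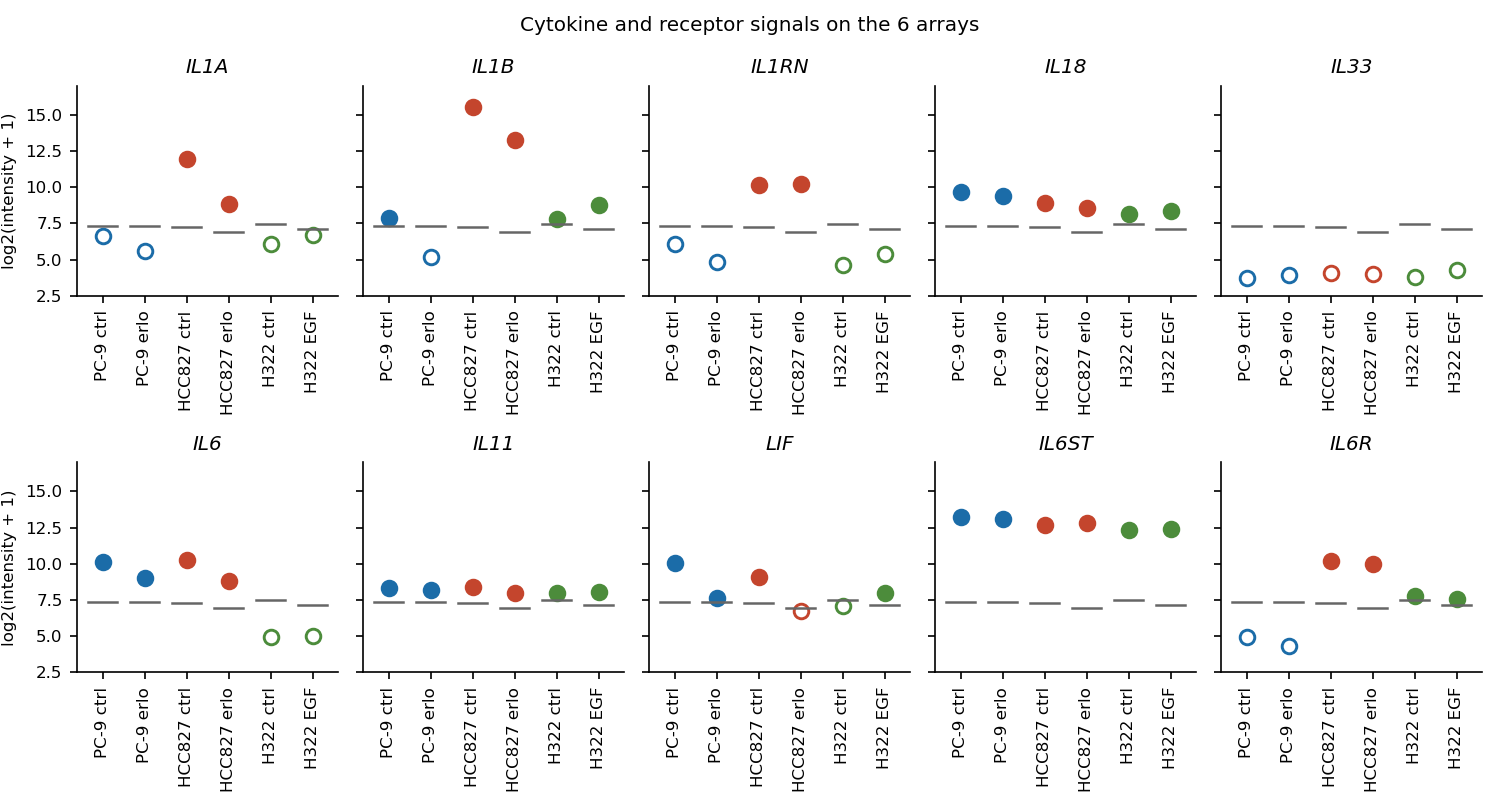
Each panel shows 1 gene, with log2(intensity + 1) on the vertical axis and the 6 arrays on the horizontal axis (ctrl, control; erlo, erlotinib), coloured by line with 1 point per array. Grey ticks mark the 95th percentile of that array's negative controls, and open points do not exceed it. IL1B and IL1A stand highest in the HCC827 control, IL6 lies below the ticks in H322, and IL33 does so on every array.

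The erlotinib comparison asked which of these genes change when EGFR is inhibited in lines that carry the mutant receptor. IL1B, LIF and IL6 fell, and each was lower in both lines, by a mean log2 change of -2.45, -2.41 and -1.28. For IL1B and LIF that mean takes 1 treated array below background as read, and with dim signals raised to background it was -1.37 for IL1B. No member rose, and 7 did not pass the test. The test was limma with cell line as a block over both lines (4 arrays, n = 2 lines), with Benjamini-Hochberg adjustment over 17687 genes at 0.05. In all, 0.916% of genes fell and 0.565% rose by it, against 3 of 10 and 0 of 10 here. The median log2 change was -0.50 over the 10 genes and -0.00 over all genes. The p-values lean on the spread of other genes, since the fit leaves 1 residual degree of freedom, and with no block 0 members passed (2 at an unadjusted p under 0.05), as with a spread not tied to the level (0 passed, 4 unadjusted).

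IL1B, the secreted interleukin 1 that drives fever and neutrophil recruitment, had a log2 level of 15.52 in the HCC827 control and 13.26 with erlotinib, and 7.84 and 5.20 in PC-9. Both treated arrays were lower than their controls, while both HCC827 arrays stood far above both PC-9 arrays. The difference was -2.26 in HCC827, a 4.8-fold drop, and -2.64 in PC-9. In PC-9 the control was only just above background and the treated array was not, so the measured drop there is at least 1.4-fold. The limma change was -2.45 ± 0.20 on the log2 scale (SE, n = 2 lines, adjusted p = 0.00734).

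IL1A, which acts as a membrane-bound and alarm-type interleukin 1, was measured in HCC827 alone. Its level there was 11.94 in the control and 8.83 with erlotinib, 8.63-fold lower, and 5 of 8691 genes above background on both HCC827 arrays (0.0575%), IL1A among them, were as far or farther down. In PC-9 the levels of 6.65 and 5.61 were both below the controls' percentile, so no fold is given. Over both lines limma gave -2.08 ± 0.44 (SE, n = 2 lines, adjusted p = 0.0727), which did not pass. Of 8 alternative settings 3 called it, with adjusted p from 1.48e-07 to 1 over the 8. The lowest came with dim signals raised, which puts both PC-9 arrays at background.

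The antagonist IL1RN was also measured in HCC827 alone. Its level there was 10.16 in the control and 10.23 with erlotinib, a 1.04-fold difference, and in PC-9 the levels of 6.11 and 4.83 were below background. The limma change was -0.61 ± 0.35 (SE, n = 2 lines, adjusted p = 0.497), and with dim signals raised it was 0.04. Whether IL1RN differed from IL1A and IL1B in its response was not tested.

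IL18, a precursor cytokine held ready in epithelia, was above background on all 6 arrays. It lay at 9.68 in the PC-9 control and 9.37 with erlotinib, and at 8.88 and 8.56 in HCC827, so that the treated array was 1.24-fold and 1.25-fold lower. That change, -0.32 ± 0.22 (SE, n = 2 lines, limma adjusted p = 0.58), did not pass. IL33, a nuclear alarm cytokine, was at 3.75 to 4.28 on the 6 arrays and above background on none of them, with a limma change of 0.07 ± 0.21 (SE, n = 2 lines, adjusted p = 0.927).

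IL6 was above background in both EGFR-mutant lines at like levels. At the stricter 99th percentile of the negative controls it was above in the HCC827 control alone. It lay at 10.12 in the PC-9 control and 9.03 with erlotinib, and at 10.25 in the HCC827 control and 8.79 with erlotinib. Both controls stood above both treated arrays. IL6 was 2.13-fold lower with erlotinib in PC-9, and in HCC827 it was 2.75-fold lower. For both lines limma gave -1.28 ± 0.22 (SE, n = 2 lines, adjusted p = 0.0409). That call is near the threshold: an offset of 16 gave an adjusted p of 0.0538 and testing only genes above background gave 0.0559. Of 8 alternatives 4 kept it, with adjusted p from 6.15e-06 to 1. The lowest came with dim signals raised, whose p-values are not read as support. The mean of probe sets, also among the 4, could not alter the change of a gene with 1 probe set.

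LIF, a gp130 cytokine known for keeping stem cells undifferentiated, lay at 10.08 in the PC-9 control and 7.62 with erlotinib, and at 9.05 and 6.70 in HCC827. The treated PC-9 array was close to background and the treated HCC827 array below it. At the stricter 99th percentile of the negative controls LIF was above on no array, so its folds rest on dim signals. LIF was 5.52-fold lower in PC-9, and in HCC827 at least 4.37-fold lower. The limma change, which takes the dim array as read, was -2.41 ± 0.24 (SE, n = 2 lines, adjusted p = 0.00973). In PC-9, 13 of 8538 genes above background on both arrays (0.152%), LIF included, were as far or farther down.

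IL11, the gp130 ligand tied to fibrosis, was close to background throughout, with levels of 8.29 and 8.19 for PC-9 and 8.38 and 8.0 in HCC827. Its change of -0.24 ± 0.25 (SE, n = 2 lines, limma adjusted p = 0.755) was within the error. The shared receptor chain IL6ST lay far above background on every array, at 13.20 in the PC-9 control and 13.11 with erlotinib, and at 12.69 and 12.82 in HCC827. Its change was 0.02 ± 0.14 (SE, n = 2 lines, limma adjusted p = 0.97), and its sign turned to -0.00295 with arrays centred on their median. IL6R, the ligand-binding chain, lay at 10.16 and 10.01 in HCC827 and below background in PC-9, at 4.94 and 4.32, with a limma change of -0.39 ± 0.27 (SE, n = 2 lines, adjusted p = 0.599).

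**Figure D3:**
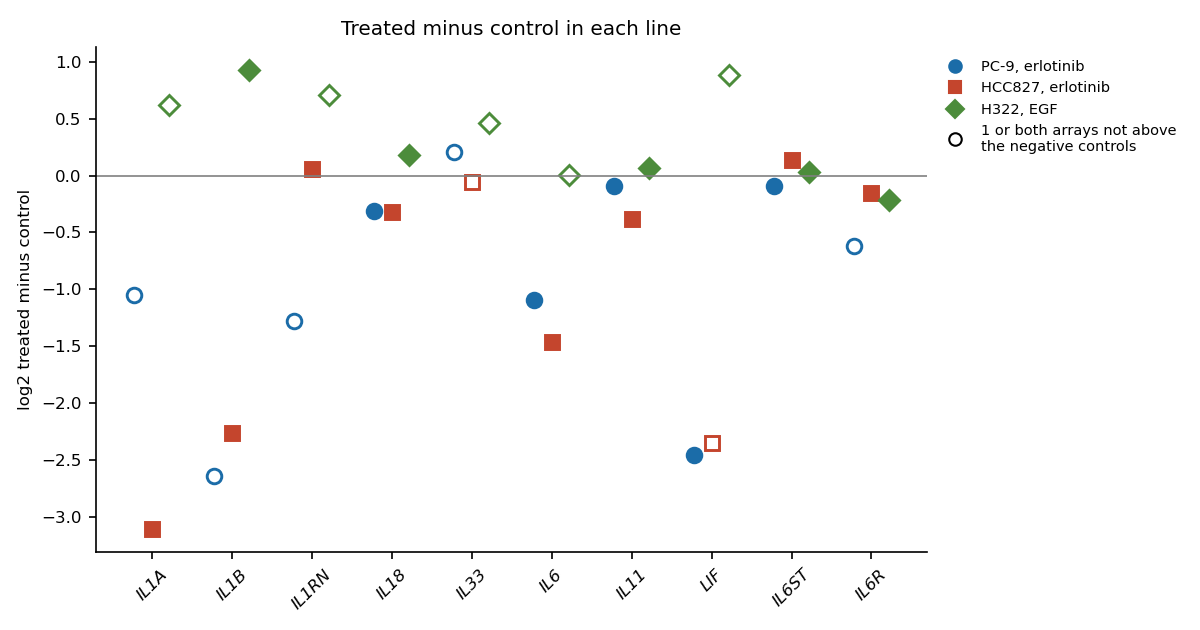
The log2 difference, treated minus control, is on the vertical axis for each of the 10 genes, with circles for erlotinib in PC-9, squares for erlotinib in HCC827 and diamonds for EGF in H322. Open symbols have 1 or both arrays not above the negative controls, and each symbol is 1 pair of arrays with no error bar. IL1A, IL1B, IL6 and LIF lie below -1 in both EGFR-mutant lines, while IL6ST and IL11 stay near 0 in all 3 lines. Of those below -1, IL1A and IL1B are open in PC-9 and LIF in HCC827.

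Line by line, with 1 pair of arrays and no test, a gene was counted at 2-fold after dim signals were raised to background. In PC-9, IL6 and LIF were lower and none was higher of the 6 members above background on at least 1 array, where 2.93% of such genes were lower and 1.45% higher. In HCC827, IL1A, IL1B, IL6 and LIF were lower and none was higher of 9, where 3.25% of genes were lower and 4.08% higher. The HCC827 drops of IL1B and IL6 ranked 25 and 100 among 8691 genes above background on both arrays (0.288% and 1.15% as far or farther down), and that of IL6 in PC-9 ranked 185 among 8538 (2.17%).

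The EGF comparison asked the reverse question in H322, whose receptor is wild type, and no member reached 2-fold in it. Of the 6 members above background, 0 were lower and 0 higher, where 0.0988% of genes were lower and 0.121% higher by that rule. IL1B was the member that reached 1.5-fold, a step that 1.6% of genes took upward: it lay at 7.82 in the control and 8.75 with EGF, 1.90-fold higher, and 16 of 8583 genes above background on both arrays (0.186%), IL1B included, were as far or farther up. At the stricter 99th percentile of the negative controls IL1B was above on neither H322 array, so its fold rests on dim signals. LIF lay at 7.07, below background, and at 7.96 with EGF, at least 1.41-fold higher. IL6 was below background on both arrays, at 4.97 and 4.98, as were IL1A at 6.07 and 6.68 and IL1RN at 4.65 and 5.36. IL18 differed 1.14-fold (8.18 and 8.36), IL11 1.05-fold (7.96 and 8.02) and IL6ST 1.02-fold (12.34 and 12.37), and IL6R was 1.15-fold lower (7.77 and 7.56). These are differences between 2 arrays, with no replicate check. The contrasts of erlotinib in mutant lines and EGF in a wild-type line differ in line and agent together, so line and agent cannot be told apart.

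Before treatment the 3 lines carried different sets of these cytokines, again with 1 control array per line and no test. IL1A, IL1B, IL1RN and IL6R were highest in HCC827, both EGFR-mutant lines had IL6 and LIF, and of these genes H322 had only IL1B and IL6R above background. Between the HCC827 and PC-9 controls, 5 of 9 members were at least 2-fold apart, where 36.3% of genes were. Between HCC827 and H322 it was 6 of 9, where 36.8% of genes were, and between PC-9 and H322 it was 3 of 7, where 38.3% of genes were.

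IL1B in the HCC827 control was 206-fold above PC-9 and 208-fold above H322, while PC-9 and H322 differed 1.01-fold. In the PC-9 and H322 controls it lay just above background, at 7.84 and 7.82, and not above the stricter 99th percentile. These folds thus rest on dim signals. IL1A in HCC827 was at least 24.1-fold above PC-9 and at least 22.1-fold above H322, and IL1RN at least 7.08-fold and 6.48-fold above them. IL6R in HCC827 was at least 7.05-fold above PC-9 and 5.25-fold above H322, and H322 was at least 1.34-fold above PC-9. The summed intensity of the 7 measured leukocyte markers was 9894 in the HCC827 control, 2881 in PC-9 and 310 in H322. In HCC827 and PC-9 that sum is led by CD68, and a leukocyte source of these cytokines was not tested. The myeloid markers among them were in part above background: CD68 lay at 13.22, 11.18 and 6.38 in these controls, CSF1R at 7.38, 7.38 and 6.39, and ITGAM at 4.83, 8.29 and 5.13, with the H322 values and ITGAM in HCC827 below background. PTPRC, CD14, CD3E and MS4A1 were below it on every array. With erlotinib that sum was 13229 in HCC827 and 3000 in PC-9, and with EGF 391 in H322.

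IL6 differed 1.09-fold between HCC827 and PC-9, and was at least 6.87-fold and 6.29-fold above H322 in them. LIF was highest in PC-9, 2.04-fold above HCC827 and at least 6.11-fold above H322, and HCC827 was at least 3-fold above H322. IL18 was also highest in PC-9, 1.74-fold above HCC827 and 2.84-fold above H322, with HCC827 1.63-fold above H322. IL6ST took the same order, PC-9 1.43-fold above HCC827 and 1.82-fold above H322, and HCC827 1.27-fold above H322. IL11 differed by 1.34-fold at most, between HCC827 and H322. With 1 array per line there is no spread to say which neighbours in these orders differ.

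The rest of both pathways was read from 8 lists, and 2 of their 78 measured genes passed the erlotinib test, both of them lower: PTGS2 and IL27RA. Over all genes 0.916% fell and 0.565% rose by that test, and the calls in each list are to be read against those shares. None of the 78 reached 2-fold with EGF in either direction. At an unadjusted p under 0.05, 18 of the 78 passed, where 14.4% of all genes did, a share against which the unadjusted counts of each list are to be read.

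Among 13 interleukin 1 family receptors and adaptors, 0 passed in limma (3 at an unadjusted p under 0.05), with a median log2 change of -0.12. The co-receptor IL1RAP lay at 11.11 in the PC-9 control and 9.54 with erlotinib, and at 10.13 and 9.30 in HCC827, so 2.97-fold and 1.78-fold lower, with a change of -1.20 ± 0.24 (SE, n = 2 lines, limma adjusted p = 0.0593). It was 1.39-fold higher with EGF. The decoy receptor IL1R2 was lower on both treated arrays, 1.99-fold for PC-9 and 1.17-fold for HCC827. IRAK2, a kinase of the receptor complex, was 2.23-fold lower in PC-9 (10.18 and 9.02) and 1.22-fold higher in HCC827 (9.52 and 9.80). With EGF the largest differences were those of IL1R1, at least 1.38-fold lower, IL1RAP, and TRAF6, a ubiquitin ligase of the pathway, 1.16-fold lower. IL1R1, the signalling receptor, was above background in HCC827 (8.62 and 8.25) and in the H322 control (7.60), and not in PC-9 (6.05 and 6.27). MYD88, named after its values were seen, lay at 12.55 and 13.28 in the PC-9 and HCC827 controls and at 7.81 in that of H322.

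Of the 6 other interleukin 1 family ligands, 0 passed in limma (0 unadjusted), with a median change of -0.22, and 4 were above background nowhere. IL37, an anti-inflammatory ligand, lay at 11.73 in the HCC827 control and 11.06 with erlotinib, 1.58-fold lower, and IL36G, an epithelial ligand, at 8.03 and 7.40, 1.55-fold lower. Both were below background in the other lines. Of the 8 inflammasome and release genes 0 passed (1 unadjusted), with a median of -0.08. CASP1, the enzyme that cuts IL1B, was below background on all 6 arrays. PYCARD, the inflammasome adaptor, was above it in PC-9 alone, at 12.71 and 12.59, with a limma change of -0.19. CASP4 lay at 12.95 to 15.72 on the 6 arrays with a limma change of 0.17 and was 1.07-fold higher with EGF, and GSDMD, the pore protein through which IL1B leaves cells, had a change of -0.03.

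Among the 14 receptors, JAK and STAT genes of the interleukin 6 family, 1 fell in limma and 0 rose (5 at an unadjusted p under 0.05), with a median of -0.04. IL27RA, which pairs with gp130 to bind interleukin 27, lay at 12.40 in the PC-9 control and 11.34 with erlotinib, and at 9.19 and 8.19 in HCC827, 2.09-fold and 2.01-fold lower. Its change was -1.03 ± 0.19 (SE, n = 2 lines, limma adjusted p = 0.0482), and 3 of 8 alternatives kept the call, with adjusted p from 0.000136 to 1. The lowest came with dim signals raised, whose p-values are not read as support. LIFR, the chain that LIF binds, had the opposite sign: it lay at 8.12 in the PC-9 control and 8.70 with erlotinib, and at 7.19 and 8.35 in HCC827, a change of 0.87 ± 0.26 (SE, n = 2 lines, limma adjusted p = 0.185). Its HCC827 control was below background, so the difference there is at least 2.11-fold. JAK1 was higher on both treated arrays, 2-fold for PC-9 and 1.34-fold for HCC827, and its limma change of 0.71 (limma adjusted p = 0.0861) did not pass either. With EGF the largest differences were those of PIAS3, LIFR and TYK2, 1.32-fold, 1.29-fold and 1.27-fold lower. Of the 6 other ligands of the family 0 passed (0 unadjusted), with a median of -0.02, and EBI3 was the one gene above background on any array, at 7.55 in the H322 control, and at least 1.33-fold lower with EGF.

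Of the 14 acute phase and STAT3-related genes 0 passed in limma (2 unadjusted), and their median was 0.11. The complement gene CFB was higher on both treated arrays, 1.73-fold for PC-9 and 1.44-fold for HCC827, a change of 0.66 ± 0.13 (SE, n = 2 lines, limma adjusted p = 0.0579), and SERPINA3 and C3 had changes of 0.65 and 0.40 (adjusted p = 0.263 and 0.49), though SERPINA3 was below background on both PC-9 arrays. SOCS3, the feedback inhibitor of gp130 signalling, was below background on all 6 arrays. With EGF TIMP1 was 1.66-fold higher, CFB 1.61-fold lower and SERPINA3 1.32-fold lower. Of the 12 interleukin 1-inducible epithelial genes 1 fell and 0 rose (6 unadjusted), with a median of -0.25, where 14.4% of all genes passed unadjusted. PTGS2, the cyclooxygenase that makes prostaglandins in inflammation, lay at 10.11 in the PC-9 control and 8.68 with erlotinib, and at 13.90 and 12.59 in HCC827, 2.70-fold and 2.48-fold lower, with a change of -1.37 ± 0.17 (SE, n = 2 lines, limma adjusted p = 0.0175) that 6 of 8 alternatives kept. The 6 include dim signals raised, whose p-values are not read as support, and the mean of probe sets, which left the change of PTGS2 as it was. The chemokine CXCL8 was 3.12-fold and 1.57-fold lower, a change of -1.14 (limma adjusted p = 0.0607) that did not pass. CCL20 had a change of -0.55, with PC-9 below background. With EGF CXCL8 was 1.26-fold higher, and CXCL3 and PTGS2 were 1.22-fold and 1.18-fold lower. The 5 measured proteins that bind cytokine mRNAs and set their decay or stability gave 0 calls (1 unadjusted) and a median of -0.18, led by HNRNPD at -0.38, ELAVL1 at -0.22 and ZFP36L1 at -0.18. With EGF ZFP36L2 was 1.33-fold lower, ELAVL1 1.15-fold higher and ZFP36 1.11-fold lower.

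**Figure D4:**
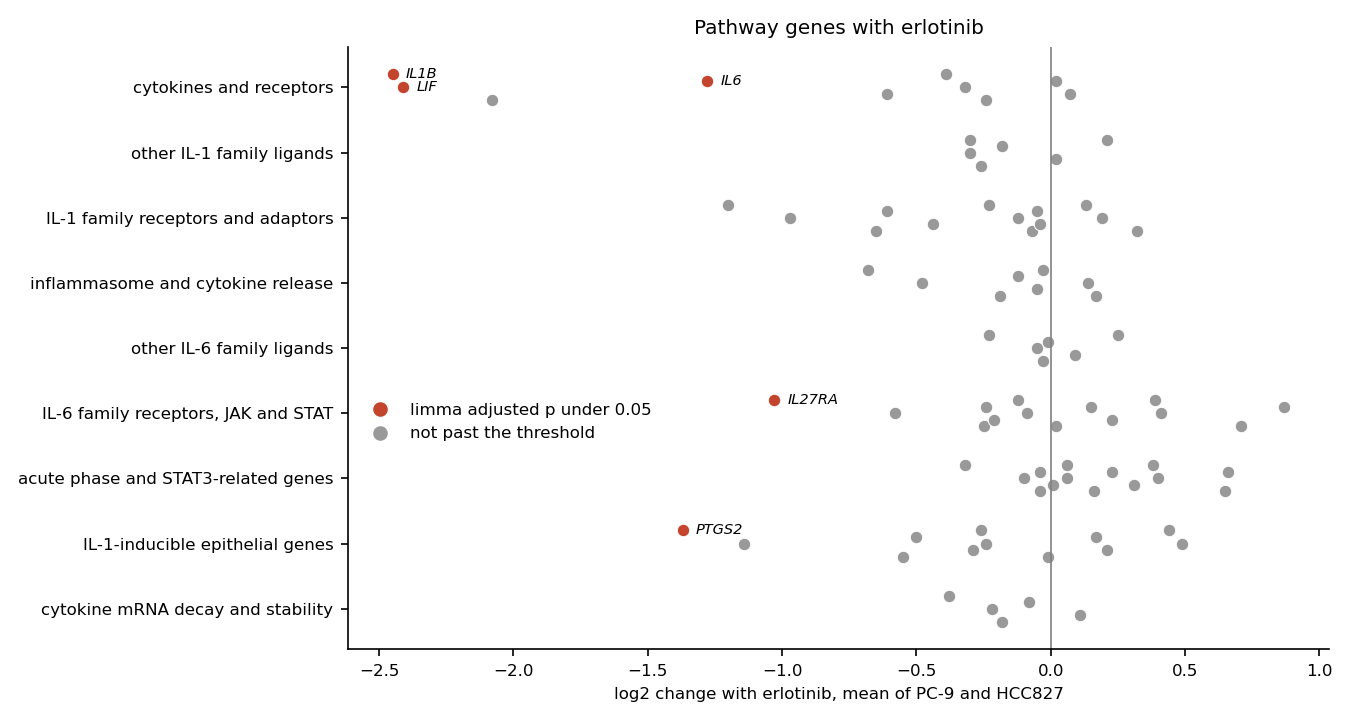
The mean log2 change with erlotinib over PC-9 and HCC827 is on the horizontal axis for the 10 cytokine and receptor genes (top row) and for the genes of the 8 pathway lists, 1 point per gene, with vertical offsets only to part the points. Red points passed limma at an adjusted p under 0.05: IL1B, LIF, IL6, IL27RA and PTGS2, all to the left of 0.

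The genes whose profile over the 6 arrays was most like each member were found by the root mean square difference between levels centred on each gene's mean, among 9053 genes above background on at least 3 arrays. This is a description over 6 arrays, and levels below background enter it as read. LIF was nearest to STC2 (difference 0.38), STAMBPL1 (0.50) and UBASH3B (0.54), against a median of 1.31 over all candidates. STC2, a secreted glycoprotein, had log2 differences of -2.39, -1.73 and 0.55 in PC-9, HCC827 and H322, while LIF was 5.52-fold lower, at least 4.37-fold lower and at least 1.41-fold higher. IL6 was nearest to GRB10 (0.28), PLAUR (0.30) and SUSD1 (0.44), against a median of 2.32. PLAUR, the urokinase receptor, had differences of -1.50 and -1.57 with erlotinib in PC-9 and HCC827, beside -1.09 and -1.46 for IL6. In the H322 control neither gene was above background. With EGF they parted: PLAUR was higher by 0.88 and reached 7.85, above background, while IL6 differed by 0.01 and stayed below it. IL1B, which spanned 10.32 on the log2 scale, was nearest to SPRR2A (0.90), PRODH (1.13) and STEAP1 (1.13), against a median of 3.57. With erlotinib SPRR2A differed by -0.53 in PC-9 and -1.77 in HCC827, and STEAP1 by -2.75 and -0.69. PRODH shared the height in HCC827 but not the response, with differences of 0.17 and 0.03. SPRR2A and PRODH were below background on both PC-9 arrays, and STEAP1 on the treated one. IL6R was nearest to RGS2 (0.14), H2BC14 (0.27) and SAMD9L (0.32), against 2.30. The profiles of IL18, IL11 and IL6ST, which spanned 1.51, 0.42 and 0.86 on the log2 scale, lay within 0.09 of their 3 nearest genes, ANKRD27, ACTB and LYRM1 for IL18, TOPBP1, NABP2 and NDUFC1 for IL11, and ATG12, LDOC1 and S100P for IL6ST. IL1A, IL1RN and IL33 were above background on too few arrays to be matched.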

How the data were processed

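Per the labels' protocols, biotinylated cRNA from Trizol-extracted total RNA was read on Clarion S arrays. The authors deposited probe set intensities on a linear scale. The submitters' processing notes name Affymetrix Expression Console as the tool. The sources used here do not give its version, background correction, summarisation or genome build. Array medians were 148 to 157, so scaling between arrays could hide a change shared by most genes.

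Here log2(value + 1) was taken of 24351 probe sets. The platform annotation gave 17709 probe sets 1 symbol and 6642 none. All 17709 matched a RefSeq gene identifier, with 0 symbols changed. Of 20 symbols with several probe sets the brightest was kept, leaving 17687 genes. The number of arrays limits precision. A difference with 1 dim array is given as at least the fold against the 95th percentile of the 612 negative controls, and with both dim no fold is given.

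Erlotinib was tested with limma 3.58.1 in R 4.3.3 (lmFit, eBayes with trend, two-sided, Benjamini-Hochberg), with cell line as a block because the arrays of a line come from the same cells. The prior added 6.58 degrees of freedom to 1. Errors are moderated SEs, so they and the p-values draw on the spread of other genes as well as that of the gene itself. All of that spread is between these samples only and may be technical. The step was tested on simulated data with 200 changed genes per run. It recovered 27.3% of 2-fold and 96.7% of 4-fold changes, and 8.94% of its calls were false. A gene that did not pass may thus still have changed. Python 3.11.15, pandas 2.3.3 and matplotlib 3.10.9 made the tables and plots.

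The genes and lists were chosen with earlier results of these data known. From each list the text names genes past the threshold and up to 3 with the largest erlotinib and EGF changes above background. FOSL1, DUSP6, SPRY4, EGR1 and EGFR are checks, and the 3 nearest profiles are named per gene. MYD88, CASP1, SOCS3, EBI3, IL37, IL36G and the other list genes given only by their level were named after their values were seen. Alternatives covered the offset, scaling, filters, trend, block and left-out lines. Some listed genes were not analysed here.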

Additional observations from a re-analysis of the deposited data

Results flagged for a closer look

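None of the 10 cytokine and receptor genes was singled out here. Of the 41 pathway list genes above background on all 4 arrays of the EGFR-mutant lines, 15 had log2 differences of opposite sign in PC-9 and HCC827 with erlotinib, and in 3 the differences also lay at least 2-fold apart. Of the 4 such cytokine and receptor genes, IL6ST alone had opposite signs. The share of all genes with opposite signs was not counted, so these counts are not read as a result about the lists. The difference between the lines was not tested, since each line has 1 pair of arrays. IRAK2, a kinase of the interleukin 1 receptor complex, was lower in PC-9 and higher in HCC827, and the PC-9 minus HCC827 difference of its log2 changes was -1.45. CEBPB, a transcription factor of the acute phase response, lay at 11.11 in the PC-9 control and 10.58 with erlotinib, and at 9.77 and 10.33 in HCC827, with a difference of -1.10. ZFP36, a protein that speeds the decay of cytokine mRNAs, lay at 10.79 in the PC-9 control and 9.88 with erlotinib, and at 10.02 and 10.77 in HCC827, with a difference of -1.67.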

How the results depend on the processing

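Directions of the 3 called members held in all 8 alternatives of the fit and in each line alone. Some of these alternatives could not alter a direction. No trend, no block, the filter on background and the mean of probe sets left the changes of these members as they were. The calls rest on limma's trend and on the cell line block. Of the 10 members, 0 passed with no trend (4 at an unadjusted p under 0.05) and 0 with no replicate block (2 unadjusted), against 3 in the main fit. Over all genes those fits called 1 and 0 of 17687 genes (2255 and 186 unadjusted), against 262. IL1B and LIF were called in 6 of 8 alternatives, each with an adjusted p of 0.0971 with no trend and 1 with no replicate block. IL6 had an adjusted p of 0.147 with no trend. IL1A passed with arrays centred on the median (0.0259), quantile normalization (0.00113) and dim signals raised (1.48e-07). Raising put both PC-9 arrays of IL1A at background, so its change there comes from HCC827. With dim signals raised 1115 of all genes were called. Genes raised to background share 1 value per array, so the p-values of that setting, for any gene, are not read as support. The pathway genes called numbered 1 with an offset of 16, 5 with arrays centred, 9 with quantile normalization, 1 among genes above the negative controls only, 9 with dim signals raised, 0 with no trend (12 unadjusted), 0 with no replicate block (0 unadjusted) and 1 with the mean of probe sets, against 2. The sign turned for IL1RN (0.04) and IL33 (-0.17) with dim signals raised and for IL6ST (-0.00295) with arrays centred. Without raising dim signals, 5 members differed 2-fold in PC-9 and 5 between the PC-9 and H322 controls, and at 1.5-fold 1 did in H322. Signal over background limits the levels. At the 99th percentile of the negative controls 1 member, IL6ST, was above it on each PC-9 and H322 array. In HCC827 with erlotinib 4 were above it, without IL6, LIF and IL1A. At the median of the negative controls 9 were above it in PC-9 with erlotinib and in the H322 control, and 10 in H322 with EGF. The cause of these shifts was not tested.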
